A study of Mus musculus with 4 samples.

Results

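The keratin-associated protein genes, written Krtap with a number, were described in mouse skin treated with MC903 or with its vehicle. Members were all genes whose symbol on the array begins with Krtap and a digit, on probe sets with a single symbol, and Krtdap was left out because it belongs to another family. Of 18193 genes measured, 38 were Krtap genes, in 22 numbered subfamilies, read by 43 probe sets. The RefSeq gene table of the mouse lists 56 Krtap genes, so 38 of 56 had a probe set of their own. Where a gene had several probe sets, the one with the highest mean over the 4 arrays was used.

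The 4 samples were skin of female wild-type BALB/c mice, 2 in the vehicle group (ethanol, labelled Control) and 2 in the MC903 group. MC903 is calcipotriol, a vitamin D analogue. All mice of both groups had first received ovalbumin together with MC903 on ear skin and an oral dose of ovalbumin, so the vehicle group had also been exposed to MC903 at sensitisation. MC903 or ethanol was then applied, and an oral ovalbumin challenge was given again. The mice's ages, the second application's dose and the interval to sampling are not given in the labels used here. The labels also do not state that the samples of a group came from separate animals, so the errors and p-values below measure only the spread between these samples. Whole skin was lysed, so fewer cells of a type and less RNA per cell cannot be told apart.

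Keratin-associated proteins are made by differentiating cells of the hair shaft, where they fill the space between keratin filaments and crosslink them through cysteine bridges. The high-sulphur and ultra-high-sulphur families are rich in cysteine, while the glycine-tyrosine-rich families are named for the amino acids that dominate them. Their genes lie in clusters, are transcribed late in the differentiation of cortex and cuticle cells, and are silent in resting follicles and in the epidermis between follicles.

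Values are the authors' linear array signals, scaled alike on the 4 arrays, with array medians of 90.2 to 109. The 3 probe sets for a bacterial gene absent from mice (TrpnX) read 1.55 to 23.96, which is used as the background range. Differences are MC903 minus vehicle on the log2(signal + 16) scale, so a difference of -1 is a halving, and the added constant understates differences of dim genes. The SE is limma's, from 2 samples per group. The adjusted p is Benjamini-Hochberg over all 18193 genes, with a threshold of 0.05, from a fit with a constant prior variance (the main fit) or with a prior that follows the signal (the signal-trend fit). The vehicle and MC903 groups hold 2 samples each, and an exact two-sided permutation test of 2 against 2 cannot go below p = 0.333.

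Krtap genes were lower in MC903-treated skin across nearly the whole family. Of the 38 genes, 37 were lower in both MC903 samples than in both vehicle samples, against 28.2% of all genes. In 35 of the 38 the gap was at least 2-fold in every pairing of samples, against 0.813% of all genes. The median difference over the family was -4.48, beside -0.04 over all genes. Single members ranged from -5.93 (Krtap15) to 1.35 (Krtap13), and 23 lay at -4 or below. Among the 50 genes with the lowest differences on the array 33 were Krtap genes, and among the 100 lowest 35 were. The 50 also held the predicted genes Gm11559, Gm11567 and Gm10228, which are outside the rule. Their symbols stand with Krtap symbols on shared probe sets.

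No single Krtap gene passed the threshold in the main fit, in which no gene of the array did (0%, in the lower direction, and none higher). The smallest adjusted p of the main fit among the members was 0.0598, for Krtap5-5, and the largest was 0.462, for Krtap13. Unadjusted p-values were under 0.05 for 35 members, all lower, against 8.39% of all genes. In the signal-trend fit 21 members passed, all lower, against 0.385% of all genes, and 17 members did not. That count rests on single samples. Leaving out the first vehicle sample gave 2 and leaving out the second gave 0, while leaving out either MC903 sample gave 35; each of these fits takes the spread of the remaining single sample from the group of 2. In the text below, "fell" is used only of the 21 members, and of other genes, that passed in the signal-trend fit.

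**Figure D1:**
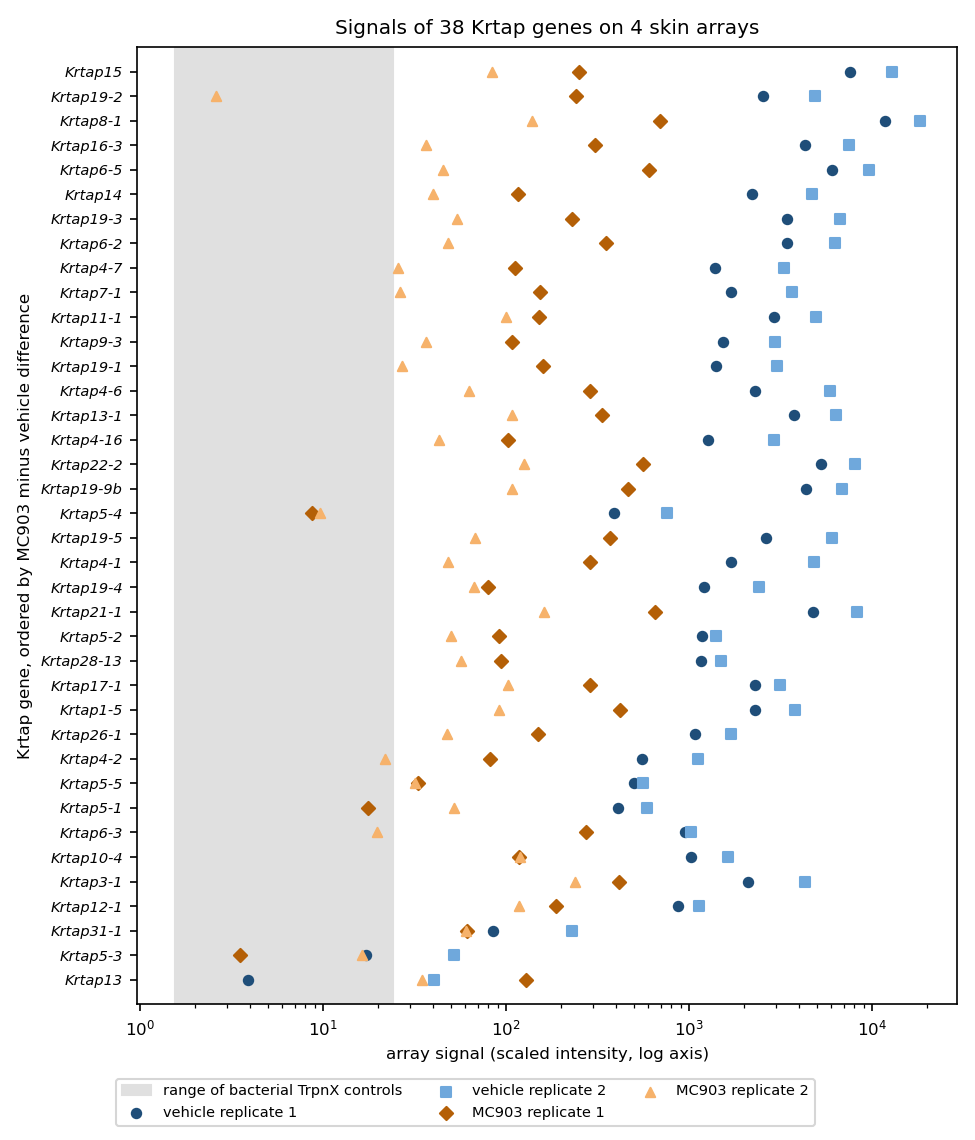
Signal of the 38 Krtap genes in each of the 4 samples, on a log axis, with 1 row per gene in the order of the difference. In 37 rows both MC903 points lie left of both vehicle points, and in the row of Krtap13 the groups overlap.

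Among the high-sulphur genes, Krtap15 had the largest difference of the family. Its signal was 7601 and 12906 in the vehicle samples and 249 and 83.2 in the MC903 samples, a difference of -5.93 ± 0.57 (SE, 2 against 2) and a 61.7-fold lower mean signal. It fell (signal-trend adjusted p = 0.0131), and only 1 gene on the array had a lower difference, the predicted gene Gm11559 (-6.03 ± 0.80). Krtap14, its neighbour in the gene order, read 2207 and 4683 in vehicle samples and 116 and 39.96 in MC903 samples (-5.23 ± 0.58) and fell (signal-trend adjusted p = 0.0219). Both genes were more than an order of magnitude dimmer in each MC903 sample than in each vehicle sample.

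Krtap11-1, a high-sulphur gene at the far end of the same gene cluster, read 2926 and 4964 in vehicle samples. Its MC903 signals were 152 and 99.7, closer together than those of Krtap15, and its difference of -4.78 ± 0.35 had the smallest signal-trend adjusted p of the family, 0.0080. Krtap13-1 read 3752 and 6378 in vehicle samples and 333 and 108 in MC903 samples (-4.56 ± 0.59), and Krtap26-1 differed by -3.74 ± 0.54. Both of these fell. Krtap16-3 read 4303 and 7481 against 308 and 36.5 (-5.45 ± 0.94), with MC903 samples so far apart that it did not pass (signal-trend adjusted p = 0.0604).

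Smaller differences among the high-sulphur genes were those of Krtap10-4, Krtap12-1 and Krtap3-1. Krtap10-4, of a subfamily known from the hair cuticle, read 1024 and 1622 in vehicle samples and 117 and 119 in MC903 samples (-3.28 ± 0.27). Krtap12-1, also of a cuticle subfamily, read 873 and 1127 against 188 and 117 (-2.61 ± 0.28). Krtap3-1, of a subfamily known from the hair cortex, read 2089 and 4279 against 412 and 237 (-3.19 ± 0.46). All 3 fell, and Krtap12-1 was still 6.56-fold lower in mean signal. Krtap1-5, another cortex gene, differed by -3.78 ± 0.74 and did not pass (signal-trend adjusted p = 0.0786). Krtap28-13, the only member on its chromosome, read 1162 and 1503 against 93.2 and 56.5 and fell (-3.91 ± 0.28, signal-trend adjusted p = 0.00996).

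The ultra-high-sulphur genes were 13, and 8 of them fell. The Krtap4 subfamily, known from the cortex, had 5 members with differences from -4.89 (Krtap4-7) to -3.72 (Krtap4-2). The second MC903 signal of Krtap4-2, 21.9, lay within the TrpnX range, which limits its difference. Krtap4-7 read 1383 and 3314 in vehicle samples and 112 and 25.6 in MC903 samples (-4.89 ± 0.71, signal-trend adjusted p = 0.0395). Krtap9-3 differed by -4.74 ± 0.55 and Krtap17-1, known from the cuticle, by -3.83 ± 0.50. Both of these fell. In the Krtap4 subfamily the second MC903 sample was the lowest of the 4 for every member.

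The Krtap5 subfamily, known from the cuticle, had no common order of the MC903 samples, the second being below the first in 2 of 5 genes. Krtap5-5 read 502 and 559 in vehicle samples and 32.9 and 31.7 in MC903 samples (-3.50 ± 0.16), the smallest SE of the family. Krtap5-2 read 1176 and 1410 against 91.0 and 49.97 (-3.96 ± 0.29), and Krtap5-4 read 390 and 761 against 8.65 and 9.57 (-4.48 ± 0.35). The MC903 signals of Krtap5-4 lay within the TrpnX background range, so its difference is limited by the dim end of the array. Krtap5-1 read 407 and 588 against 17.7 and 51.8 (-3.40 ± 0.41). Its MC903 replicate 1 signal also lay within the TrpnX range. Its second probe set had the MC903 samples in the other order, with both signals (8.73 and 5.33) within that range. These 4 genes fell in the signal-trend fit.

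The members with the smallest differences had low signals in all samples. Krtap31-1 read 84.5 and 228 in vehicle samples and 61.4 and 60.7 in MC903 samples (-1.02 ± 0.46). Krtap5-3 read 17.1 and 51.9 against 3.50 and 16.4 (-0.92 ± 0.46), with 1 of its vehicle signals and both MC903 signals within the TrpnX range. Neither passed in either fit, and after centring on array medians Krtap5-3 was no longer lower in every pairing (36 of 38 members were). Krtap13 was the one member with a positive difference, reading 3.91 and 40.4 in vehicle samples and 129 and 34.5 in MC903 samples (1.35 ± 0.74, signal-trend adjusted p = 0.388). Its groups overlapped, and the vehicle samples alone spanned the range from background to above an MC903 sample.

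The 13 glycine-tyrosine-rich genes, of the subfamilies Krtap6, Krtap7, Krtap8, Krtap19, Krtap21 and Krtap22, were lower in every pairing and at least 2-fold lower in every pairing without exception. Their differences ran from -5.67 to -3.31. Krtap8-1 read 11821 and 18217 in the vehicle samples and 694 and 139 in the MC903 samples (-5.47 ± 0.79). It fell (signal-trend adjusted p = 0.0393). Krtap19-2 had the most widely separated MC903 samples of the family, at 242 and 2.59 beside vehicle signals of 2537 and 4851 (-5.67 ± 1.34). Its second MC903 signal lay within the TrpnX range and it did not pass (signal-trend adjusted p = 0.113).

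The Krtap6 subfamily had the same spread. Krtap6-5 read 6040 and 9566 in vehicle samples and 600 and 45.1 in MC903 samples (-5.29 ± 1.17). Krtap6-2 read 3436 and 6235 against 352 and 47.9 (-4.92 ± 0.92), and Krtap6-3 read 952 and 1025 against 273 and 19.6 (-3.31 ± 1.04). The second MC903 signal of Krtap6-3 lay within the TrpnX range, which limits its difference and its spread. None of the 3 Krtap6 genes passed in the signal-trend fit. Krtap7-1 read 1686 and 3652 against 153 and 26.2 (-4.89 ± 0.79, signal-trend adjusted p = 0.0524). Krtap22-2 differed by -4.53 ± 0.74 and Krtap21-1 by -4.19 ± 0.72, and neither passed (signal-trend adjusted p = 0.0507 and 0.0582). Besides Krtap8-1, the glycine-tyrosine-rich genes that fell were Krtap19-3 (-5.19 ± 0.71), Krtap19-9b (-4.49 ± 0.72) and Krtap19-4 (-4.27 ± 0.38), so 4 of 13 passed. In Krtap19-4 the MC903 signals, 79.7 and 67.0, lay close together.

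**Figure D2:**
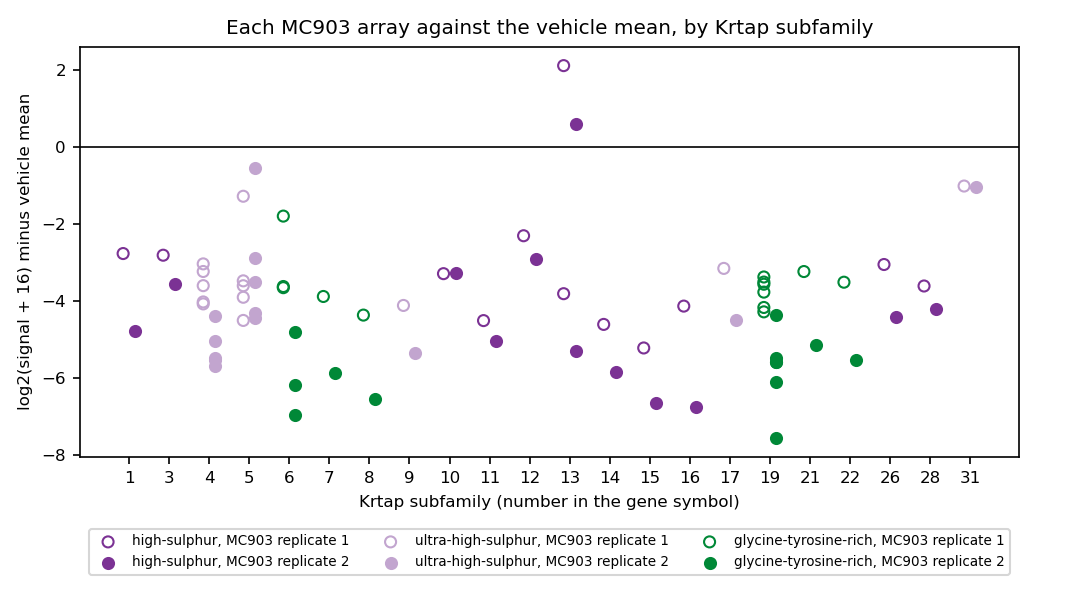
Each MC903 sample (open circles replicate 1, filled replicate 2) against the vehicle mean on the log2(signal + 16) scale, 1 point per Krtap gene and sample, by subfamily number and coloured by class. Every point lies below 0 except those of Krtap13, at 2.11 and 0.59, and most filled points lie under the open ones.

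Set side by side, the classes differed little in the first MC903 sample and more in the second. The median difference was -4.58 for the 13 glycine-tyrosine-rich genes and -3.91 for the 25 high-sulphur genes, of which 12 were high-sulphur in the narrow sense (median -3.85) and 13 ultra-high-sulphur (median -3.96). Against the vehicle mean, the class medians were -3.63 and -3.61 in MC903 replicate 1 and -5.60 and -4.46 in MC903 replicate 2. The gap between the classes of -0.673 was therefore -0.022 in replicate 1 and -1.14 in replicate 2, and it rests on replicate 2. It was -0.137 without the genes in the lower 50% of signals. All 13 glycine-tyrosine-rich genes lie in the same gene cluster, which also holds 7 high-sulphur genes. Over those 7 the median difference was -4.78, below the -4.58 of the glycine-tyrosine-rich genes. Against the vehicle mean it was -4.14 in MC903 replicate 1 and -5.31 in replicate 2. The gap between the classes therefore cannot be told apart from the gene cluster. In the signal-trend fit 17 of 25 high-sulphur and 4 of 13 glycine-tyrosine-rich genes fell. The median SE was 0.54 in the first class and 0.79 in the second, and the difference between these shares was not tested.

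Class membership followed the subfamily number. Krtap16-3 carries the RefSeq synonym of another Krtap16 gene and lies among Krtap19 and Krtap22 genes, so its class is uncertain. Counted as glycine-tyrosine-rich, it moved the gap between the class medians to -0.866. The classes of Krtap28-13 and Krtap31-1 are also uncertain.

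The samples within each group were not alike for the family. Vehicle replicate 2 was above vehicle replicate 1 in 38 of 38 members, by a median of 0.83 on the log2(signal + 16) scale, while the median over all genes was below 0.01 in size. MC903 replicate 2 was below MC903 replicate 1 in 34 of 38 members, by over 1 in 26 of them, with a median of -1.46 beside 0.02 over all genes. The summed signal of the family was 92402 and 163110 in the vehicle samples and 8966 and 2521 in the MC903 samples. The groups were thus separated by more than the spread within either, although that spread was itself wide. The family median against the vehicle mean was -3.61 in MC903 replicate 1 and -5.10 in MC903 replicate 2.

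The gap between the MC903 samples differed among the gene clusters. It had a median of -1.98 over the 20 members of the cluster that holds Krtap6 to Krtap8, Krtap11, Krtap13 to Krtap16, Krtap19, Krtap21, Krtap22 and Krtap26, and of -1.35 over the 10 members of the cluster of Krtap1, Krtap3, Krtap4, Krtap9, Krtap17 and Krtap31. Over the 5 Krtap5 genes it was 0.05, and over Krtap10-4 and Krtap12-1 it was -0.29. The cluster medians of the MC903 minus vehicle difference were -4.68, -4.09, -3.50 and -2.95 in the same order. These are descriptions of neighbouring genes in 2 samples, and the differences between clusters were not tested.

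**Figure D3:**
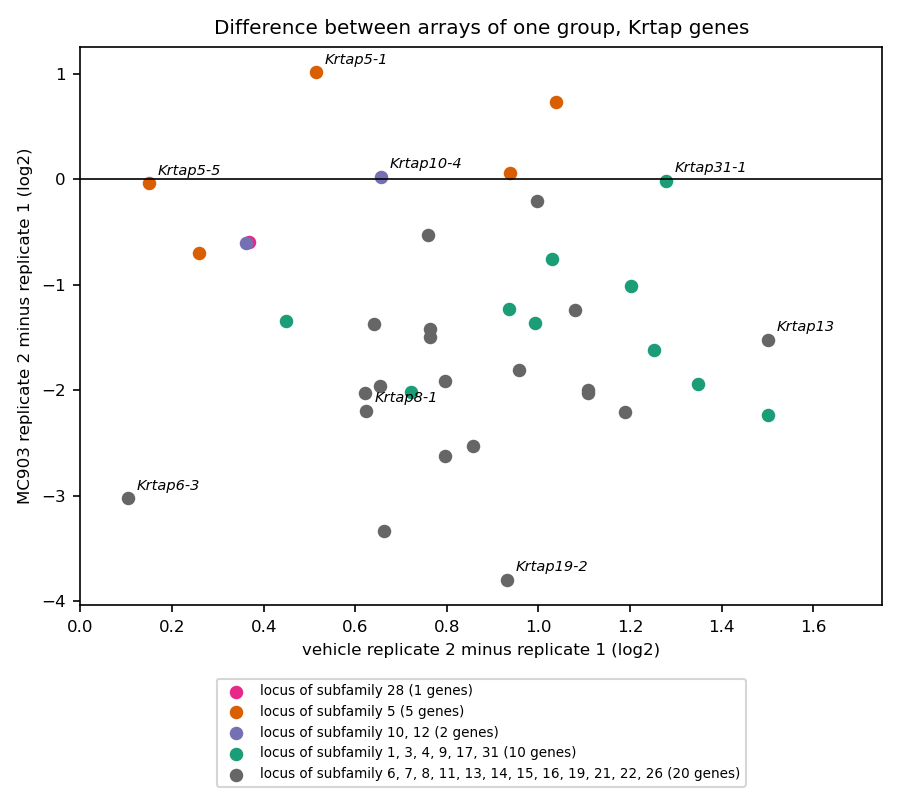
For each Krtap gene, the gap between the vehicle samples (replicate 2 minus replicate 1, horizontal) and between the MC903 samples (vertical), as differences of log2(signal + 16), coloured by gene cluster. All 38 points lie right of 0, and the vertical gap runs from -3.79 (Krtap19-2) to 1.01 (Krtap5-1).

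Second probe sets and shared probe sets gave the same direction. All 5 further probe sets of members were lower in the MC903 samples by group mean. The further probe set of Krtap5-1, which may cross-hybridise, read 591 and 688 in vehicle samples and 8.73 and 5.33 in MC903 samples (-4.83), and that of Krtap19-1 read 156 and 220 against 56.1 and 52.4 (-1.52), so probe sets of a gene disagreed in size. A Krtap symbol stands with others on 6 further probe sets, which were outside the rule, and 6 of 6 were lower in every pairing. The one shared by Krtap9-1 and predicted genes read 1741 and 3328 against 140 and 6.84 (-5.34), and those shared by Krtap3-2 and Krtap3-3 differed by -1.68 and -3.98. The 6.84 lay within the TrpnX range, as did both MC903 signals of the further Krtap5-1 probe set, which limits these differences. Krtap genes can be near-identical within subfamilies, so a probe set can take up RNA of a neighbour, and single members of a subfamily are uncertain in that respect.

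Because most members were lower together, their promoters were read from RefSeq. Promoters of 36 of the 38 members matched by symbol, on the build GRCm38.p6, and the 250 bases before the annotated start were searched on both strands. Those of 4 genes are shown as examples, chosen after their values were seen: Krtap15 has the lowest difference, Krtap8-1 is a glycine-tyrosine-rich gene that fell, Krtap5-5 has the smallest SE, and Krtap13 has the opposite sign. Each is written 5′ to 3′ on the gene's strand, and capitals mark matches to 3 motifs: the TATA box letters TATAAA, the LEF motif CTTTG followed by a pair of A or T, and a HOXC13 motif, which is TTAATN or TTTATN followed by a pair of purines. Overlapping matches are joined, and a match on the other strand appears as its complement. Krtap15 is chr16:88828759-88829008 (+), Krtap8-1 is chr16:89487953-89488202 (-), Krtap5-5 is chr7:142229972-142230221 (-) and Krtap13 is chr16:88751629-88751878 (-).
Krtap15: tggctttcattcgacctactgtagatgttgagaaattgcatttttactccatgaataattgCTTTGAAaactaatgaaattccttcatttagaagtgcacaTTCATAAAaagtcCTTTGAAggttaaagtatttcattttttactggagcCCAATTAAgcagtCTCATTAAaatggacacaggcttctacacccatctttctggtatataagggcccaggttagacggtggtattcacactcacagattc
Krtap8-1: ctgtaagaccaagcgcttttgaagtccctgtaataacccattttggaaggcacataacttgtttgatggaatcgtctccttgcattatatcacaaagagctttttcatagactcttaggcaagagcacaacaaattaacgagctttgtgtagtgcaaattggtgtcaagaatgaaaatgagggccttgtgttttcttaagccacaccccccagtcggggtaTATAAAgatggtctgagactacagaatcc
Krtap5-5: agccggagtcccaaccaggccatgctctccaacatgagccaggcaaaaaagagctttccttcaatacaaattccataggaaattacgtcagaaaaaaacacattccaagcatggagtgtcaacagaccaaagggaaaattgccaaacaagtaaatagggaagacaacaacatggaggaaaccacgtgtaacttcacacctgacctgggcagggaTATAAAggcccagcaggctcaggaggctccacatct
Krtap13: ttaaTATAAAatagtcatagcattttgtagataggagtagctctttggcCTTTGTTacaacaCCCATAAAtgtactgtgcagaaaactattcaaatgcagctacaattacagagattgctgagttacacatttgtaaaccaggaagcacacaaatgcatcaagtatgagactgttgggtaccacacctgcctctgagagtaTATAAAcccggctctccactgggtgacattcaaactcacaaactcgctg

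The TATA box, bound by the general transcription machinery, was the motif that most members held. TATAAA was found in 28 of 36 member promoters (77.78%) and in 12.37% of 32851 promoters. On the gene's strand between 40 and 19 bases before the start it was found in 21 of 36 (58.33%), against 1.939% of all promoters. In the sequences above TATAAA began 29 bases before the start in Krtap8-1 and 36 in Krtap5-5. In Krtap13 the nearer of 2 began 49 bases before the start. Krtap15 had no exact TATAAA, but it holds the similar letters tatataa near its start. Such variants were not counted, so a promoter without TATAAA is not shown to lack a TATA box. By class, the match near the start was found in 16 of 24 high-sulphur and 5 of 12 glycine-tyrosine-rich promoters.

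LEF1 and HOXC13 are regulators of the hair matrix and shaft. The LEF motif was found in 15 of 36 member promoters (41.67%) against 14.84% of all. The HOXC13 motif was found in 17 of 36 (47.22%) against 17.23%, and apart from overlap with TATAAA in 15 of 36 (41.67%) against 14.58%. Krtap15 held 2 LEF and 3 HOXC13 matches, Krtap13 held 1 of each, and Krtap8-1 and Krtap5-5 held neither. Krtap19-2, with the second lowest difference of the family, held none of the 3 motifs. These are letter matches within families of similar sequence, given as descriptions without a test. The LEF and HOXC13 motifs are rich in A and T, and the promoters compared were not matched for base composition. Whether any match is a bound site was not tested.

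Hair keratins, the filament proteins that the keratin-associated proteins surround, were lower as well, but not all of them. Of the 12 measured, 10 were lower in every pairing, with a median difference of -3.25. The other 2, Krt84 and Krt36, were higher in every pairing, against 21.6% of all genes. In the signal-trend fit 7 fell and 1 rose, against 0.539% of all genes called higher. Among the type I keratins Krt33b read 1189 and 2679 in vehicle samples and 17.9 and 54.7 in MC903 samples (-5.20 ± 0.56), and Krt33a read 2828 and 4630 against 133 and 101 (-4.78 ± 0.31). Among the type II keratins Krt86 differed by -4.44 ± 0.44 and Krt83 by -3.31 ± 0.35. These 4 fell. The MC903 replicate 1 signal of Krt33b lay within the TrpnX range, which limits its difference. Over the 12 hair keratins the median gap between the MC903 samples was -0.34, with the second sample below the first in 9. The gaps of Krt33b, Krt31 and Krt35 ran in the opposite order.

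Krt84, a type II hair keratin, read 318 and 346 in vehicle samples and 893 and 740 in MC903 samples (1.25 ± 0.18) and rose (signal-trend adjusted p = 0.0454). Krt36, of type I, read 470 and 678 against 1114 and 777 (0.70 ± 0.29) and did not pass. Krt35, a keratin of the early cortex and cuticle, read 522 and 1568 against 99.0 and 107 (-2.95 ± 0.55) and did not pass either (signal-trend adjusted p = 0.0739). Of 14 other products of the shaft, with a median of -0.86, 8 were lower and 3 higher in every pairing. Over all genes 28.2% were lower and 21.6% higher in every pairing, shares that also stand beside the counts of the lists below. The count of higher shaft products was thus near the share over all genes. The 3 higher were Dsc2, a desmosomal cadherin (1.31 ± 0.60), Tgm3, a crosslinking enzyme (1.13 ± 0.37), and Hephl1 (0.38 ± 0.26), and none of these passed. The lower ones included S100a3, a calcium-binding protein of the cuticle, at -3.70 ± 0.54 and Padi3, an enzyme that deiminates hair proteins, at -2.54 ± 0.35, which were among the 4 that fell.

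Genes of the inner root sheath, the layer that moulds the growing shaft, were lower too. The median over 11 genes was -3.05, and 7 of them, all keratins, fell. In every pairing 9 were lower and 1, the protease gene Ctsl, was higher. Krt26 read 692 and 829 in vehicle samples and 65.6 and 48.4 in MC903 samples (-3.42 ± 0.21), and Krt27 differed by -3.34 ± 0.32. Tchh, which encodes the sheath's trichohyalin, differed by -0.43 ± 0.28 and did not pass.

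Regulators of the matrix and shaft, a list of 21, had a median of -0.41, with 13 lower and 1 higher in every pairing and 0 passing in either fit (5 lower and 0 higher at an unadjusted p under 0.05 in the main fit). Hoxc13, a homeobox factor that drives hair keratin and Krtap genes, read 430 and 458 in vehicle samples and 392 and 289 in MC903 samples (-0.38 ± 0.21, signal-trend adjusted p = 0.408). Foxn1, a factor of the shaft's differentiation, differed by -0.45 ± 0.25. Shh, a signal of the hair matrix, stood at -1.64 ± 0.49, with an MC903 replicate 1 signal of 7.33 within the TrpnX range. Msx2, a matrix homeobox factor, differed by -1.50 ± 0.23, and Lef1, a factor of Wnt signalling, by -1.36 ± 0.24. The signal-trend adjusted p-values of Shh, Msx2 and Lef1 were 0.194, 0.0624 and 0.124. The list was not compared with the Krtap genes by a test.

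**Figure D4:**
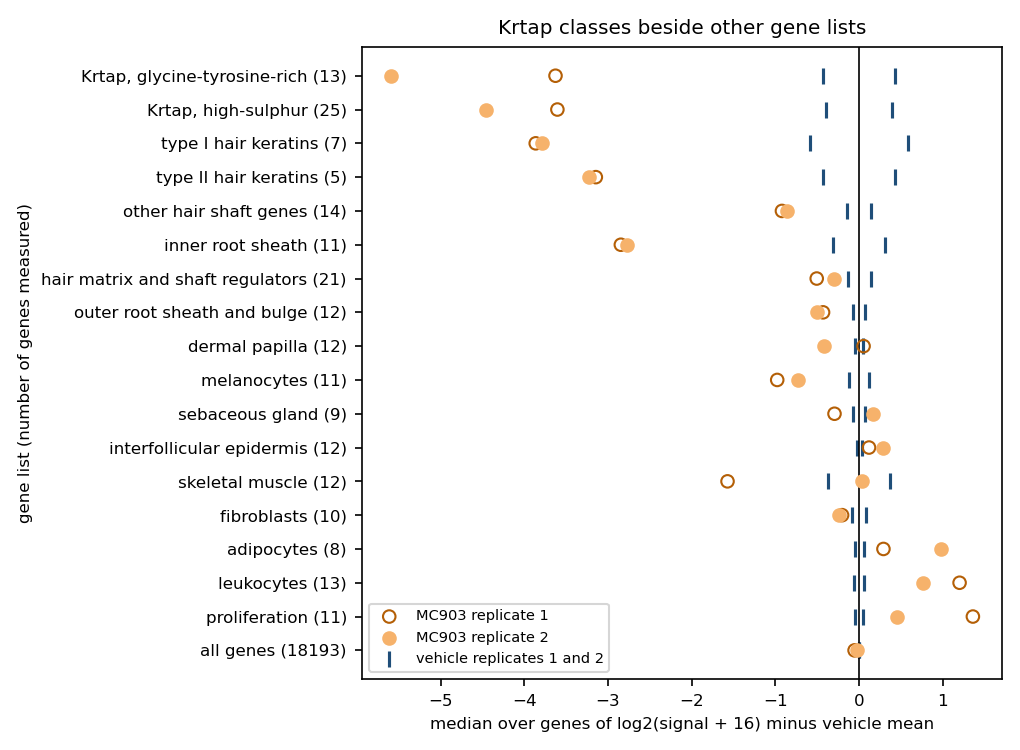
Median over each gene list of log2(signal + 16) minus the vehicle mean, in MC903 replicate 1 (open circles), MC903 replicate 2 (filled) and the vehicle samples (ticks), with the number of genes in brackets. The glycine-tyrosine-rich Krtap genes lie at -3.63 and -5.60 and the high-sulphur ones at -3.61 and -4.46, while the MC903 points of the type I hair keratins lie close together at -3.86 and -3.79.

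Markers of other cells of the skin moved beside the family as follows. Of 12 genes of the interfollicular epidermis (median 0.23), 7 were higher in every pairing, and Krt1, a keratin of the upper epidermis, was the one that rose, by 1.30 ± 0.17. Krt77, a keratin of sweat ducts and epidermis, differed by 1.96 ± 0.46 and did not pass. The median of this list was 0.12 without MC903 replicate 2, 0.07 after quantile normalization and 0.34 after centring on array medians.

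Of 11 melanocyte genes (median -0.82) 9 were lower in every pairing, and Pmel, of the melanosome matrix, fell (-1.28 ± 0.20). The pigment enzyme genes Tyrp1 and Tyr differed by -1.39 ± 0.25 and -1.30 ± 0.22 and did not pass. The 12 outer root sheath and bulge genes had a median of -0.47, with 7 lower and 1 higher in every pairing. The 2 lowest were the stem cell receptors Lgr5 at -1.09 ± 0.23 and Lgr6 at -0.91 ± 0.17. The higher one was the keratin gene Krt17, at 0.80 ± 0.33. The 12 dermal papilla markers stood at -0.33, with Rspo3, which enhances Wnt signalling, at -1.34 ± 0.23 and the growth factor gene Fgf10, whose 2 vehicle signals lay within the TrpnX range, at 0.72 ± 0.15. The 9 sebaceous gland markers stood at -0.02, with Fads2 at -0.78 ± 0.28 and Plin2 at 0.61 ± 0.15, both genes of lipid metabolism. The dermal papilla and sebaceous gland medians change sign in other settings, and no marker of these 3 lists passed in either fit.

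Leukocyte markers (13 genes) had a median of 0.997, with 12 higher in every pairing. S100a8 read 422 and 732 in vehicle samples and 36943 and 5891 in MC903 samples (4.69 ± 0.95), and S100a9 differed by 4.85 ± 0.97. Both are abundant in neutrophils and are also made by inflamed epidermis. The 11 proliferation genes were all higher in every pairing, with a median of 0.90, of which 1.36 in MC903 replicate 1 and 0.45 in replicate 2, and with Ccnb2 at 1.15 ± 0.34 and Cdk1 at 1.06 ± 0.38. Adipocyte markers stood at 0.67, of which 0.29 in replicate 1 and 0.97 in replicate 2, with Retn at 0.98 ± 0.45 and Cidec at 0.87 ± 0.43. Fibroblast markers stood at -0.20, and at -0.33 without vehicle replicate 2, with the collagen genes Col1a1 at -0.70 ± 0.17 and Col1a2 at -0.46 ± 0.17. No gene of these 4 lists passed in either fit. Skeletal muscle markers had a median of -0.76, of which -1.57 in MC903 replicate 1 and 0.03 in replicate 2, with summed signals of 79735 and 50227 in vehicle and 16257 and 59966 in MC903 samples. Myh1, a fast myosin, differed by -1.64 ± 0.90 and Mb, myoglobin, by -1.64 ± 0.71, and no marker of this list passed. The muscle signal thus differed most in MC903 replicate 1, whereas the Krtap genes were lowest in replicate 2. The part of these other cells in the Krtap differences was not tested.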

How the data were processed

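The deposited table holds linear signal intensity of 45101 Affymetrix probe sets on 4 arrays, labelled from 200 ng of total RNA per the labels' protocols. The intensities were scaled by the authors: leaving out 2% at each end, each array's mean is 500.003 in the deposited values. The sources used here name no summarisation software. The number of arrays limits the precision.

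The 64 control probe sets were left out. Of the rest, 34945 carried one gene symbol, 34741 of these matched to RefSeq by ID, and 932 carried several. Per gene the probe set with the highest mean log2(signal + 16) was kept. limma 3.58.1 in R 4.3.3 (lmFit, eBayes; 2 residual and 2.32 prior degrees of freedom) compared MC903 with vehicle, with Benjamini-Hochberg adjustment over 18193 genes. The signal-trend fit had 3.72 prior degrees of freedom. The scripts were tested on simulated data.

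Genes named were, per subfamily, those with the lowest and highest difference, the 10 largest differences, positive members, 2 genes per related list, and Hoxc13, Foxn1, Msx2, Lef1 and Krt35; others named were chosen after their values were seen. Krt85 and Dsg4 had no probe set with a single symbol in the table used. Members, lists and tests were chosen with earlier results of these data known. Alternatives covered normalization, the added constant, filters on low signals, the choice of probe set, the prior, a block for the replicate number, and fits without each of the arrays.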

Additional observations from a re-analysis of the deposited data

How the results depend on the processing

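The direction of the family was the same in every setting below and the number of calls was not. For all genes the main fit called 0, and 3 were called after quantile normalization, 17 after centring on array medians, 70 with an added constant of 64, 42 and 177 without the 25% and 50% of genes with the lowest signals, 12 with the mean of a gene's probe sets, 5 with the probe set chosen by the linear mean (added after seeing the data) and 168 with the prior that follows the signal. For Krtap genes the count was 0 in the main fit, 1 after centring, 12 with a constant of 64, 8 and 20 under the filters on low signals, 2 with the mean of the probe sets, 2 with the linear mean and 21 with the prior that follows the signal. It stayed 0 with a constant of 1, quantile normalization, a robust prior, no cross-hybridising probe sets, each probe set singly, the replicate block and each array left out.

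The labels do not pair the samples: same-numbered samples had deviations that correlated at -0.061. With the replicate block the Krtap calls stayed 0, and with the prior that follows the signal they were 30 in place of 21. With each array left out that count ran from 0 to 35, the family median from -5.10 to -3.61, and the gap between the class medians from -1.14 to -0.0225. Krtap genes lower in every pairing numbered 31 to 43 over all settings, which hold different numbers of features, and those at least 2-fold lower 31 to 39. Over 485 alternative values of the 29 Krtap genes picked by the naming rule 0 changed sign. Over 568 values of the 34 other genes picked by that rule 0 did. Genes named outside the rule, such as Krtap5-5, Krt84 and Krt36, were not followed singly across the settings.

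Sign changes occurred in some list medians. The dermal papilla median of -0.329 became 0.0539 without MC903 replicate 2 and -0.419 without replicate 1. The sebaceous gland median of -0.025 became 0.0938 after centring, 0.104 without the 50% lowest genes and 0.0547 without vehicle replicate 2. It was 0.170 without MC903 replicate 1 and -0.294 without MC903 replicate 2. The skeletal muscle median of -0.763 became 0.02995 without MC903 replicate 1 and -1.57 without MC903 replicate 2. Centring moved the median of all genes from -0.04 to 0.08. The alternative of setting classes by protein composition was not run, because no protein sequences were used here. Leaving out members with all 4 signals within the background range left the family as it is, since 0 members had that. Signals within that range limit the difference in 6 members in MC903 samples and in 2 in vehicle samples.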
